A study of Rattus norvegicus with 24 samples.

Results

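The 10 genes described here make, break down or control polyamines, and they were chosen by name: Odc1, Amd1, Srm and Sms (synthesis), Azin1, Oaz1 and Oaz2 (control of the Odc1 protein) and Sat1, Smox and Paox (acetylation and oxidation). Earlier results of these data were known when the genes were chosen. A probe was taken as a member where its accession was paired with one of these symbols. Of the 10 genes 7 had such a probe, against 8945 genes with a symbol on the array, and they were measured by 10 probes, because Odc1, Amd1 and Azin1 had 2 probes each. Oaz2, Smox and Paox had no paired probe and were not analysed here.

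Dihydrotestosterone (DHT), an androgen that aromatase does not turn into estrogen, was given to Sprague-Dawley rats of 12 weeks by intraperitoneal injection at 10 mg/kg, and tissues were taken after 16 h. Prostate, skin and forebrain came from males castrated 3 days earlier, and the vehicle males had been castrated as well. Ovary came from intact females, per the sample labels, although the design text names castrated males as the source of every tissue, so that ovary differs from the other tissues in sex and in the animals' own hormones. The 24 one-colour arrays formed 8 groups of 3, vehicle and DHT for each of the 4 tissues, and 23 were used. The label of forebrain vehicle array 3 says that it failed quality control, and this array did not enter the fits.

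The design text calls the 3 samples of a group biological replicates, while the labels name no animals, so that the p-values rest on the spread between samples, which may be technical. The arrays lay on 6 slides with 1 array of each tissue on every slide. The 3 slides that held vehicle arrays held no DHT array, so that DHT and slide cannot be told apart within a tissue. On the arrays used, 54.6% to 97.0% of the probes were well above background. Ovary vehicle arrays 1 and 3 stood apart, with 96.5% and 97.0% of probes well above background and the narrowest spread of log2 signals (interquartile ranges of 3.79 and 3.21, against 5.01 to 6.80 on the other arrays used). On vehicle arrays the ovary, neuronal, luminal epithelial and keratinocyte markers followed the tissue labels, while the prostate secretory markers did not. These 6 secretory markers had mean log2 levels of -5.24 to -3.44 in vehicle prostate and of -4.98 to -1.94 in vehicle ovary. On prostate vehicle arrays 1, 2 and 3, respectively 2, 3 and 5 of them were well above background. The 8 ovary markers had mean log2 levels of 2.63 to 2.97 in ovary and of -3.32 or less on the other vehicle arrays, and 6 of 7 neuronal markers were on the array, with levels of 2.38 to 2.39 in forebrain and of -2.00 or less in the others. The 5 luminal epithelial markers lay at 5.86 to 6.06 in vehicle prostate and at 2.59 or less in the other tissues, and 3 keratinocyte markers lay at 6.61 to 7.46 in vehicle skin.

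Polyamines (putrescine, spermidine and spermine) are small positively charged molecules that bind nucleic acids and are needed for growth and translation. Ornithine decarboxylase (Odc1) makes putrescine from ornithine. S-adenosylmethionine decarboxylase (Amd1) makes the donor of the aminopropyl groups, which spermidine synthase (Srm) and spermine synthase (Sms) add in turn. Antizyme (Oaz1) binds the Odc1 protein and sends it to the proteasome, and antizyme inhibitor (Azin1), a relative of Odc1 without its enzyme activity, binds antizyme. Spermidine/spermine N1-acetyltransferase (Sat1) marks polyamines for oxidation or export. The prostate is known for secreting large amounts of polyamines into seminal fluid, and Odc1 is a long-known androgen-responsive gene of the rodent prostate.

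The 4 synthesis genes all rose in prostate 16 h after DHT, and no member fell. Srm rose the most of the 7 members, 5.64-fold, followed by Sms (3.96-fold), Amd1 (2.54-fold) and Odc1 (2.20-fold). The other 3 members, Oaz1, Azin1 and Sat1, did not pass the test. The calls of Srm and Sms held in all 19 alternative settings, while that of Amd1 was lost in 10 and that of Odc1 in 6 of them, and with the replicate number as a block or without the filter on dim probes only Srm and Sms were called. A gene was called at a Benjamini-Hochberg adjusted p under 0.05 of limma, over all genes of the tissue. Of 25370 genes tested in prostate 6.67% were called higher and 3.22% lower, against 4 of 7 members higher and 0 lower. The members were chosen with earlier results of these data known, so that these shares are a description only. With the percentile taken over the probes well above background on all arrays, 1401 genes were called higher and 1260 lower, against 1691 and 816 here, and the same 4 members were called. The median log2 change of the 7 members was 1.14, beside 0.15 over all genes tested (from -0.09 to 0.10 under the other scalings and background corrections). This member median is the change of Odc1 on its brighter probe, chosen by the mean over vehicle and DHT arrays together. The other Odc1 probe changed by 0.75, so that the median depends on the probe. Levels are given as log2 signal minus the 75th percentile of the same array, so a level of 0 equals that percentile, and levels of different probes are not compared.

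Srm was at 2.21, 2.22 and 2.24 on the 3 vehicle arrays and at 4.77, 4.67 and 4.72 on the 3 DHT arrays of prostate. The spread within each group was small against the distance between the groups. The change was 2.50 ± 0.14 log2 units (SE of limma, adjusted p = 0.00174), with a 95% interval of 2.16 to 2.84. Sms, which makes spermine from spermidine, was at -0.25, -0.12 and 0.04 on vehicle and at 1.57, 1.94 and 2.11 on DHT arrays. Every DHT array was well above every vehicle array, and the change was 1.98 ± 0.20 (adjusted p = 0.00383).

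The brighter of 2 Amd1 probes in prostate was at 6.26, 6.52 and 6.77 on vehicle and at 7.94 and 7.78 on DHT arrays 1 and 3. Its spot on DHT array 2 was marked as an outlier by the scanner software and left out, as was that of the second Amd1 probe. The change was 1.34 ± 0.22 (adjusted p = 0.0224, 3 vehicle and 2 DHT arrays). The second probe went from 5.31, 5.35 and 5.64 to 7.19 and 7.07, a change of 1.70 ± 0.20 (adjusted p = 0.00803 in a fit that kept all probes). The call of Amd1 did not hold with its outlier spots kept, where the change was 1.10 with an adjusted p of 0.0605. It was also lost under quantile normalization, where the change was 0.73 (adjusted p = 0.104).

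Odc1, the enzyme at the entry of the pathway, had 2 probes of similar brightness. Over all prostate arrays A_44_P202988 was the brighter one, and on vehicle arrays alone A_43_P14163 was (mean of 2.84, against 2.67). In prostate the probe A_44_P202988 was at 2.64, 2.77 and 2.59 on vehicle and at 3.63, 4.05 and 3.72 on DHT arrays, a change of 1.14 ± 0.18 (adjusted p = 0.0135). The probe A_43_P14163 was at 2.78, 2.98 and 2.75 on vehicle and at 3.53, 3.75 and 3.47 on DHT arrays, a change of 0.75 ± 0.16 (adjusted p = 0.0356 with all probes kept). The groups did not overlap on either probe, and the probes gave changes of different size. Without DHT array 2 or DHT array 3, A_43_P14163 became the brighter probe, and the change was 0.67 (adjusted p = 0.138) or 0.81 (adjusted p = 0.0879).

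**Figure D1:**
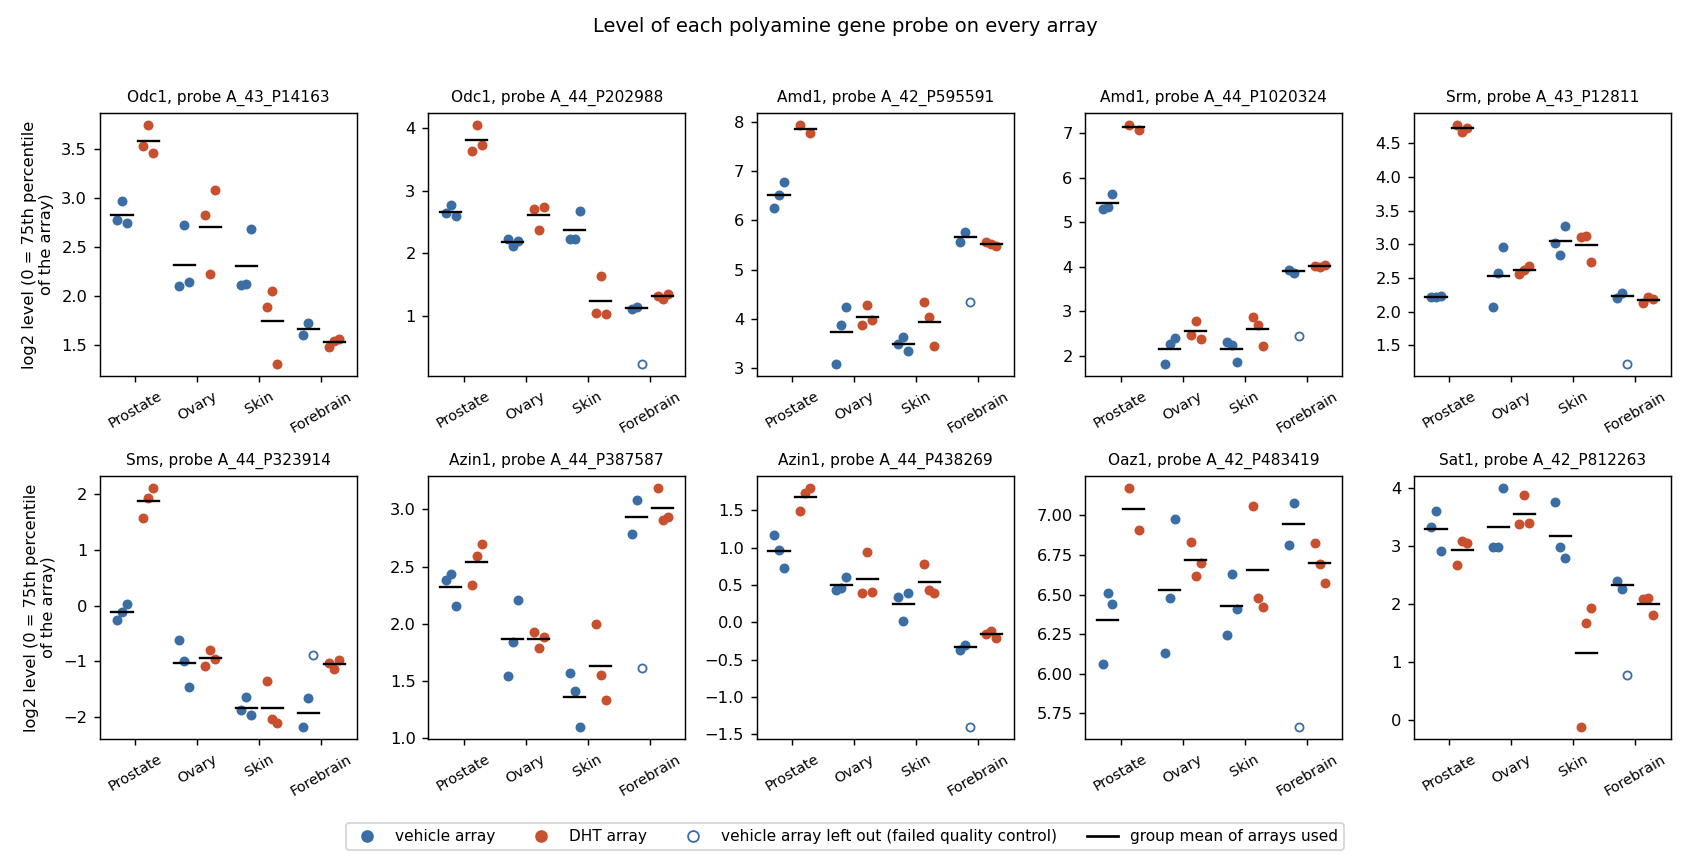
Log2 level of each probe of the 7 polyamine genes (y axis, 0 is the 75th percentile of the array) on every array by tissue (x axis), with 1 point per array, blue for vehicle, red for DHT, an open circle for the array left out and a bar for the mean of the arrays used. In prostate the DHT arrays of Srm (4.67 to 4.77) and Sms (1.57 to 2.11) lie above every other array of these probes, and in skin the DHT arrays of Sat1 (-0.14 to 1.93) lie below the vehicle arrays.

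Among the genes that act on the Odc1 protein or on finished polyamines, values were smaller. Oaz1, the antizyme, was at 6.06, 6.51 and 6.44 on vehicle and at 7.17 and 6.91 on 2 DHT arrays of prostate, its spot on DHT array 2 being marked as an outlier. Its DHT arrays lay above the vehicle arrays, with a change of 0.70 ± 0.22 (adjusted p = 0.111). It was called in 1 of 19 alternatives, with a trended and robust prior of the variance (adjusted p = 0.0385). The 2 probes of Azin1 gave 0.22 ± 0.17 (adjusted p = 0.450) and 0.72 ± 0.19 (adjusted p = 0.0561 with all probes kept). On the brighter one vehicle (2.16 to 2.43) and DHT arrays (2.34 to 2.70) overlapped, and on the other one they did not (0.72 to 1.17 and 1.49 to 1.80). Sat1 was at 3.32, 3.60 and 2.92 on vehicle and at 2.66, 3.09 and 3.04 on DHT arrays, which overlap (-0.35 ± 0.23, adjusted p = 0.364). In all, the lowest DHT array exceeded the highest vehicle array for 5 of 7 members and the reverse held for 0 of 7, against 25.3% and 11.2% of all genes tested in prostate.

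**Figure D2:**
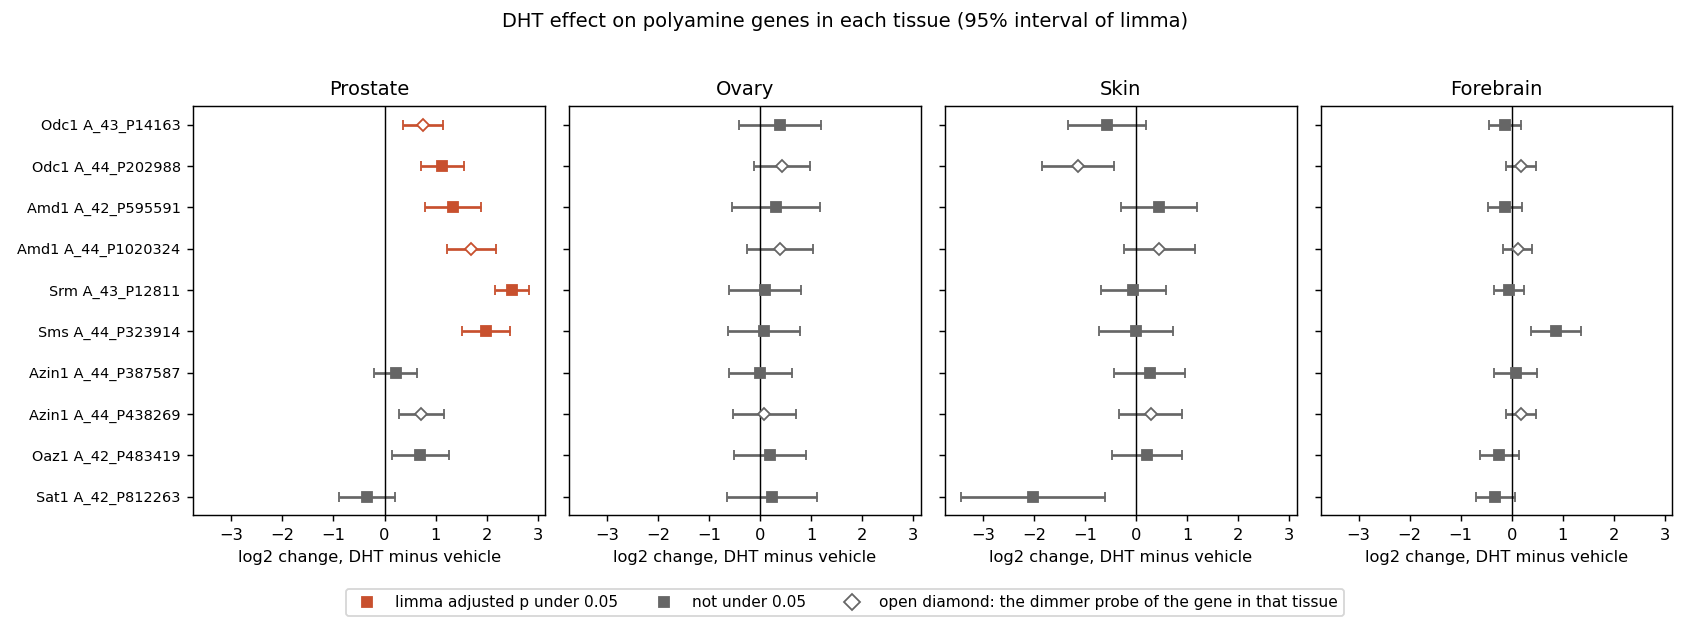
Log2 change with DHT (x axis) for each probe of the polyamine genes (rows) in the 4 tissues (panels), with the 95% interval of limma. The squares are the brighter probe of each gene in that tissue and the open diamonds the dimmer one, and red marks an adjusted p under 0.05, which is seen in prostate at Srm (2.50), Sms (1.98), both Amd1 and both Odc1 probes.

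Some lists of cell type markers also did not overlap between vehicle and DHT arrays of prostate. Of single genes there, 25.3% lay higher and 11.2% lower on every DHT array. The leukocyte, smooth muscle, endothelial, hair follicle, neuronal, astrocyte and ovary lists did overlap. Of 7 adipocyte markers 6 were on the array, and 5 of these rose (Adipoq, Cd36, Cidec, Fabp4 and Retn), the mean level of the list being 1.04 to 1.19 on vehicle and 2.16 to 2.69 on DHT arrays. Of the 5 luminal epithelial markers Krt8 (-0.89) and Krt19 (-1.32) fell, while Cdh1 (-0.51), Epcam (-0.42) and Krt18 (0.59) did not pass. The 4 luminal markers measured on all prostate arrays were at 5.53 to 5.61 on vehicle and at 4.60 to 4.91 on DHT arrays. Basal epithelial and keratinocyte markers (3.84 to 4.17 on vehicle and 3.47 to 3.79 on DHT arrays) and skeletal muscle markers (-3.26 to -2.67 and -2.62 to -2.15) did not overlap either. These list means did not stand for every marker. Krt14 changed by -1.09, but Krt5 by -0.06 and Krt15 by 0.04. In muscle Ckm (2.14), Acta1 (1.17) and Tnnt3 (0.92) lay higher, but Mb (0.05) and Actn3 (-0.01) hardly moved. No single basal or muscle marker passed the test. All adipocyte, luminal and basal markers were well above background on every prostate array. Of the 6 skeletal muscle markers 4 to 6 were so on vehicle arrays and 5 on each DHT array, so that part of this list was near background. The part of these lists in the changes of the polyamine genes was not tested. In such tissue pieces fewer cells of a type and less RNA per cell cannot be told apart. Pbsn, a secreted prostate protein under androgen control, rose by 5.94 ± 0.29 (adjusted p = 0.00102).

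The promoters of the 4 genes that rose together in prostate are given here, since Odc1 is a known target of Myc, which binds the E-box CACGTG, and androgen receptor sites contain AGAACA. The sequences are the 250 bases before the start of each gene in RefSeq on GRCr8, written 5′ to 3′ on the strand of the gene, with an E-box in capitals. The positions are chr6:46058415-46058664 (plus strand) for Odc1, chr20:45265983-45266232 (minus strand) for Amd1, chr5:164308752-164309001 (plus strand) for Srm and chrX:41331753-41332002 (plus strand) for Sms.
Odc1: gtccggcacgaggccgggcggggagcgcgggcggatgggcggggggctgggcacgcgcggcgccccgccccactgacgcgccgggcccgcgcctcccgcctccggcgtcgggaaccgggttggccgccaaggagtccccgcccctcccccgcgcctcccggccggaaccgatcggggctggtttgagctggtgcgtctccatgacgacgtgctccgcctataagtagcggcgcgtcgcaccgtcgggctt
Amd1: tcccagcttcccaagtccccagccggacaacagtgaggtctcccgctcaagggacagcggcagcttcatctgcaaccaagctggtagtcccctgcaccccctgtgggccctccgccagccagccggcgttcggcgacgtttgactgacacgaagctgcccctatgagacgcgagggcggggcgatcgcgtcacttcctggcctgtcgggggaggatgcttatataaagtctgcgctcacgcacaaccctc
Srm: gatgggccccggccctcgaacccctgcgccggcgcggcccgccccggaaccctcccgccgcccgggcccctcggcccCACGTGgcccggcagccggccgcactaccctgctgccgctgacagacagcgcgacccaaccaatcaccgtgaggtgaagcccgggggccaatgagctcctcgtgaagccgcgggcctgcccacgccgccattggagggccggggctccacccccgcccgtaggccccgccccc
Sms: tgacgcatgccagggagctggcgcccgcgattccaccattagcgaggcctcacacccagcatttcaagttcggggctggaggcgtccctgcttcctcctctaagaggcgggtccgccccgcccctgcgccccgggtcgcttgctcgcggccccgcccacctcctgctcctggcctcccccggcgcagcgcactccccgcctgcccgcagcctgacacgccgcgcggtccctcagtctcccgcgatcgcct

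Among these 4 promoters only that of Srm held CACGTG, at 173 to 168 bases before the start. Of the 9 members with a promoter entry 2 held it, Srm and Oaz1 (at 234 to 229 bases before the start), against 5.59% of all 33469 promoters of that length. AGAACA was in 0 of 9 on either strand, against 17.5% of all promoters, and AGAACA followed after 3 bases by its reverse complement was in 0 of 9, against 0.012%. Azin1 had no entry. Sequence farther upstream or within the genes was not searched, so these counts do not show whether the genes have either site elsewhere. The promoters of Odc1, Srm, Sms and Amd1 held 78.0%, 78.4%, 72.8% and 64.0% G and C, beside a median of 51.2% over all promoters. Myc itself did not pass in prostate (-0.54 ± 0.16, adjusted p = 0.0866), nor did its partner Max (0.10 ± 0.24, adjusted p = 0.802).

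In ovary, skin and forebrain no member was called with DHT, and no gene of the array was (0%, 0% and 0% of 31331, 25734 and 28083 genes tested). The lowest adjusted p of limma over all genes was 0.112 in ovary, 0.755 in skin and 0.0721 in forebrain. At an unadjusted p under 0.05 there were 3432, 1278 and 7716 genes, among them 0, 1 and 1 members.

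In ovary the changes of the 7 members ran from 0.00 for Azin1 to 0.39 ± 0.33 for Odc1, with a median of 0.19, beside -0.24 over all genes tested. Under quantile normalization the median over all genes was 0.08, so that its sign depended on the scaling. Srm was at 2.07, 2.58 and 2.96 on vehicle and at 2.56, 2.62 and 2.68 on DHT arrays. The DHT arrays lay inside the vehicle range, and the change was 0.09 with a 95% interval of -0.62 to 0.80. For Sms the change was 0.07 (-0.63 to 0.78), and for Amd1 0.31 (-0.56 to 1.18). On the brighter probes no member separated the groups, where 2.51% of genes lay higher and 11.7% lower on every DHT array. The second Odc1 probe, A_44_P202988, did separate them, at 2.23, 2.11 and 2.20 on vehicle and at 2.70, 2.38 and 2.74 on DHT arrays. Leukocyte markers lay lower on DHT arrays (2.05 to 2.40, against 2.47 to 3.27), and their part in the ovary values was not tested. Vehicle arrays 1 and 3, those with the narrow spread, held the lowest and the highest vehicle level of Srm, Amd1, Azin1 and Oaz1. The sign of the ovary values of Srm, Sms, Amd1, Azin1 and Oaz1 turned under at least 1 left-out array or other scaling, and Odc1 was at -0.01 without vehicle arrays 1 and 3.

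In skin the value farthest from 0 was that of Sat1, the acetylating enzyme. It was at 3.75, 2.98 and 2.78 on vehicle and at -0.14, 1.67 and 1.93 on DHT arrays, so that all DHT arrays lay lower, array 1 by the most. The change was -2.02 ± 0.59 (unadjusted p = 0.0121, adjusted p = 0.755). Odc1 lay lower on all DHT arrays on both probes. A_43_P14163 was at 2.12, 2.13 and 2.69 on vehicle and at 1.89, 2.06 and 1.31 on DHT arrays (-0.56 ± 0.32, adjusted p = 0.755), and A_44_P202988 was at 2.23, 2.23 and 2.67 and at 1.05, 1.64 and 1.03 (-1.13 ± 0.30, unadjusted p = 0.00688, adjusted p = 0.750).

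For both synthases the skin DHT arrays overlapped the vehicle arrays. Srm gave -0.05, with a 95% interval of -0.69 to 0.58, and Sms -0.00 (-0.73 to 0.72). Of the 7 members 2 (Sat1 and Odc1) lay lower on every skin DHT array and 0 higher, against 6.2% and 6% of genes. The skin pieces differed in content. Hair follicle markers, 5 of 6 on the array, had mean levels of 2.38, 1.23 and 1.72 on vehicle and of -3.28, 0.84 and 1.23 on DHT arrays 1 to 3, so that the DHT array with the lowest Sat1 was also the one with the lowest follicle markers, 3 of the 5 being well above background there. Skeletal muscle markers were at -1.54 on vehicle array 1 and at 8.34 to 10.92 on the other 5 skin arrays. Adipocyte markers lay lower on DHT arrays (2.24 to 2.48, against 2.58 to 2.82). The part of this content in the skin values was not tested.

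In forebrain Sms was the member with the lowest adjusted p. It was at -2.18 and -1.65 on the 2 vehicle arrays used and at -1.02, -1.14 and -0.97 on DHT arrays. The DHT arrays lay higher, with a change of 0.87 ± 0.19 (adjusted p = 0.0829). The array that failed quality control read -0.88, above all the others, while on the other 9 probes it was below the other vehicle arrays or was left out as an outlier. Srm was at 2.20 and 2.27 on vehicle and at 2.13, 2.21 and 2.18 on DHT arrays, a change of -0.06 with an interval of -0.36 to 0.24. Odc1 gave -0.14 ± 0.12 on A_43_P14163 and 0.19 ± 0.11 on A_44_P202988. On the brighter probes 1 of the 7 members lay higher and 2 lower (Sat1 and Odc1) on every DHT array, against 23.5% and 23.8% of genes. The second probes of Odc1, Amd1 and Azin1 lay higher on every DHT array, so that for Odc1 the direction depended on the probe. With a trended and robust prior of the variance the call of Sms appeared, with the same change and an adjusted p of 0.0262.

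In forebrain, some marker lists did not overlap between vehicle and DHT arrays. Of single genes there, 23.5% lay higher and 23.8% lower on every DHT array. The adipocyte, basal, endothelial, hair follicle, luminal, ovary, prostate secretory and smooth muscle lists did overlap. Skeletal muscle markers, 6 of 8 on the array, were at -0.22 and -0.29 on vehicle and at -4.05 to -2.71 on DHT arrays. Neuronal markers were at 2.38 to 2.39 on vehicle and at 2.86 to 2.98 on DHT arrays. The 2 oligodendrocyte markers measured on all forebrain arrays lay lower on DHT arrays (3.81 to 3.96, against 4.22 to 4.62), as did the astrocyte (0.66 to 0.72, against 0.90 to 1.19) and leukocyte markers (0.23 to 0.45, against 0.60 to 1.08). No single marker passed the test, and their part in the forebrain values was not tested.

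The tissues' responses to DHT were compared in 1 fit over the 23 arrays with slide as a random block. Srm and Sms passed the F test over the 4 tissues (adjusted p = 1.71e-04 and 0.0110), 2 of 7 members against 2.19% of 36105 genes. The effect on Srm was larger in prostate than in ovary by 2.41 ± 0.27, than in skin by 2.55 ± 0.27 and than in forebrain by 2.58 ± 0.29 (adjusted p = 2.25e-04, 1.07e-04 and 3.19e-04), where 2.1%, 1.69% and 1.06% of genes were called. The effect on Sms was larger in prostate than in ovary by 1.91 ± 0.34 (adjusted p = 0.00863) and than in skin by 1.99 ± 0.34 (adjusted p = 0.00515). Against forebrain the difference of 1.10 ± 0.37 did not pass (adjusted p = 0.180). For Sms the F test no longer passed under quantile normalization, under another background correction or with forebrain vehicle array 3 kept, and the call against ovary was lost in the first and the last of these.

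For Odc1 and Amd1 the outcome depended on the probe. Over all tissues the brighter Odc1 probe was A_43_P14163, with an effect larger in prostate than in skin by 1.31 ± 0.35 (adjusted p = 0.0735). A_44_P202988 gave 2.27 ± 0.27 for the same difference, with an adjusted p of 2.33e-04. The brighter Amd1 probe gave 1.50 ± 0.42 for prostate minus forebrain (adjusted p = 0.105) and 1.04 ± 0.40 for prostate minus ovary (adjusted p = 0.178). The second Amd1 probe gave 1.60 ± 0.33 (adjusted p = 0.0260) and 1.32 ± 0.31 (adjusted p = 0.0402). With the second probes in place of the brighter ones, 4 members passed the F test. Sat1 had its lowest effect in skin, and its effect in ovary minus skin was 2.25 ± 0.59 (adjusted p = 0.0943).

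**Figure D3:**
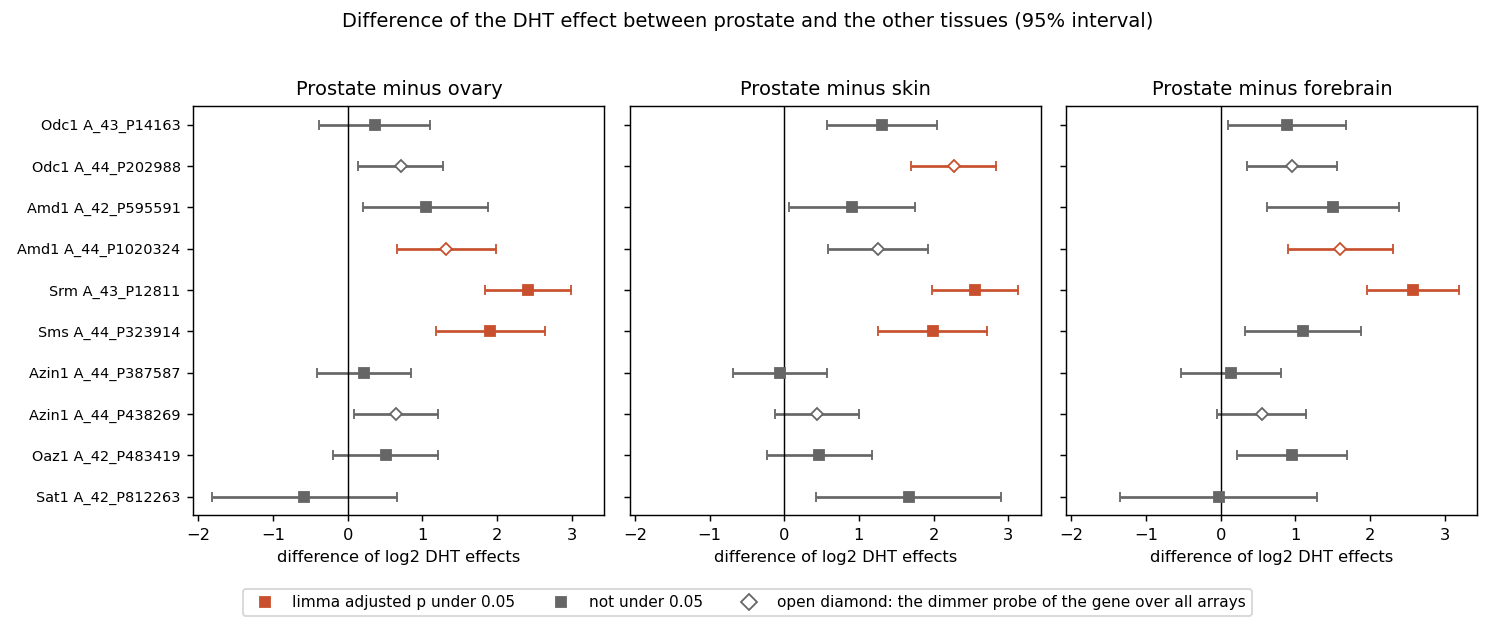
Difference between the log2 DHT effect in prostate and that in ovary, skin or forebrain (x axis, panels) for each probe (rows), with 95% intervals from the fit over 23 arrays, squares for the brighter and open diamonds for the dimmer probe, and red for an adjusted p under 0.05. Srm is red in all 3 panels (2.41, 2.55 and 2.58), and Sms in those for ovary and skin (1.91 and 1.99).

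Without DHT the 4 tissues also differed in these genes. In the fit of the vehicle arrays Amd1, Sms, Azin1 and Odc1 passed the F test over tissues (adjusted p = 1.26e-04, 0.00164, 0.00535 and 0.0371), 4 of 7 members against 65.3% of 33954 genes, so that the share among the members is close to that of the array. The call of Odc1 was lost in 9 of 21 other settings and that of Azin1 in 1. For the 6 pairs of tissues, 27.5% (prostate and ovary), 39.9% (prostate and skin), 39.1% (prostate and forebrain), 35.1% (ovary and skin), 35.9% (ovary and forebrain) and 43.6% (skin and forebrain) of genes were called.

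Amd1 was highest in vehicle prostate, at 6.52 ± 0.26 (SD, n = 3), followed by forebrain (5.66 ± 0.14, n = 2), ovary (3.74 ± 0.60, n = 3) and skin (3.50 ± 0.14, n = 3). Prostate and forebrain each lay above ovary (by 2.78 and 1.94) and skin (by 3.01 and 2.18), while the neighbours prostate and forebrain (0.83, adjusted p = 0.0860) and ovary and skin (0.24, adjusted p = 0.578) did not differ by the test. On the second Amd1 probe, which gave the same order, prostate also lay above forebrain, by 1.52 (adjusted p = 0.00228).

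Sms was highest in vehicle prostate as well, at -0.11 ± 0.15 (n = 3), followed by ovary (-1.02 ± 0.42, n = 3), skin (-1.83 ± 0.16, n = 3) and forebrain (-1.92 ± 0.38, n = 2). Prostate lay above skin by 1.72 and above forebrain by 1.82 (adjusted p = 0.00135 and 0.00159). The steps from prostate to ovary (0.91, adjusted p = 0.0378), from ovary to skin (0.81, adjusted p = 0.0488) and from ovary to forebrain (0.91, adjusted p = 0.0477) were close to the threshold and were lost in 11, 18 and 17 of 21 other settings. Skin and forebrain, neighbours in this order, differed by 0.10 (adjusted p = 0.812).

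Srm had another order, with skin (3.04 ± 0.22, n = 3) above ovary (2.54 ± 0.45, n = 3), forebrain (2.24 ± 0.05, n = 2) and prostate (2.22 ± 0.01, n = 3). Its F test did not pass (adjusted p = 0.0671), and the largest pair, skin above prostate by 0.82, had an adjusted p of 0.0330 and was lost in 11 of 21 other settings. Prostate, with the lowest vehicle mean, had the highest DHT mean of the 4 tissues, at 4.72 ± 0.05 (n = 3).

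Odc1 was at 2.84 ± 0.12 in vehicle prostate, 2.33 ± 0.35 in ovary and 2.31 ± 0.33 in skin (n = 3 each) and at 1.67 ± 0.09 in forebrain (n = 2) on A_43_P14163. Only prostate and forebrain, the ends of this order, differed by the test (1.16, adjusted p = 0.0122). On A_44_P202988 forebrain (1.13 ± 0.02) lay below the other 3 tissues, by 1.53, 1.05 and 1.24 for prostate, ovary and skin (adjusted p = 9.59e-04, 0.00869 and 0.00279).

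The 2 probes of Azin1 disagreed on the tissue order. On A_44_P387587 forebrain was highest (2.93 ± 0.21), above ovary by 1.06 and above skin by 1.57 (adjusted p = 0.0188 and 0.00211). On A_44_P438269 forebrain was lowest (-0.34 ± 0.05), below ovary by 0.84 (adjusted p = 0.0275) and below prostate by 1.29 (adjusted p = 0.00302). Vehicle prostate lay above vehicle skin on both probes, by 0.97 and 0.71. Oaz1 (group means of 6.34 to 6.94) and Sat1 (2.32 to 3.31) did not pass the F test (adjusted p = 0.296 and 0.179).

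The genes around polyamine metabolism were taken from 7 lists with 52 entries, of which 34 were on the array and 31 were tested in prostate. Of these 8 rose and 0 fell in prostate (25.8%, against 6.67% of all genes), with a median change of 0.18, beside 0.15 over all genes. The lists, too, were chosen with earlier results of these data known, so that this share is a description only. In ovary, skin and forebrain 31, 30 and 30 were tested and 0 were called, as was the case for every gene of the array. On the list named ornithine supply, which also holds Azin2 and Agmat, genes that do not supply ornithine, 2 of 8 genes rose in prostate. Arg2, the mitochondrial arginase that makes ornithine from arginine, rose by 1.86 ± 0.29 (adjusted p = 0.0134), from -0.47 ± 0.41 to 1.39 ± 0.38 (SD, n = 3 each). Oat, which interconverts ornithine and glutamate semialdehyde, rose by 1.09 ± 0.22 (adjusted p = 0.0293). Arg1, Otc, Agmat, Ass1, Asl and Azin2 did not pass, with changes from -0.39 to 0.29.

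In the methionine cycle, the source of S-adenosylmethionine for Amd1, 2 of 7 genes rose. Mat2a, the S-adenosylmethionine synthetase of most tissues, was at -0.01 ± 0.02 on vehicle and at 1.48 ± 0.15 on DHT arrays (1.50 ± 0.15, adjusted p = 0.00432). Bhmt, which remakes methionine with betaine, rose by 1.17 ± 0.19 (adjusted p = 0.0218, 2 vehicle and 3 DHT arrays). Mtr, which does so with methyltetrahydrofolate, was 0.97 lower and did not pass (adjusted p = 0.0539). Methylthioadenosine is left over at each step of Srm and Sms and is turned back into methionine by a salvage pathway. Of its 4 tested genes Adi1, a dioxygenase near the end of the pathway, rose by 2.46 ± 0.38 (adjusted p = 0.0133), from 2.43 ± 0.76 to 4.89 ± 0.20, while Enoph1, Got1 and Mri1 did not pass.

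Of 6 tested transporters 2 rose, Slc22a3, an organic cation transporter (1.41 ± 0.30, adjusted p = 0.0343), and Slc7a2, a carrier of cationic amino acids (1.16 ± 0.23, adjusted p = 0.0284). Both were dim, at -3.62 ± 0.49 and -1.68 ± 0.39 on DHT arrays. Of the 2 tested genes on the list of other polyamine enzymes and antizymes Maob, a monoamine oxidase, rose by 1.15 ± 0.19 (adjusted p = 0.0165), and Aldh9a1 did not pass. Maob was dim as well, at -4.06 ± 0.21 on vehicle and -2.91 ± 0.20 on DHT arrays. Eif5a, the translation factor that carries a spermidine-derived hypusine, and Dhps, which starts that modification, gave 0.31 ± 0.14 and 0.42 ± 0.16 (adjusted p = 0.203 and 0.139).

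**Figure D4:**
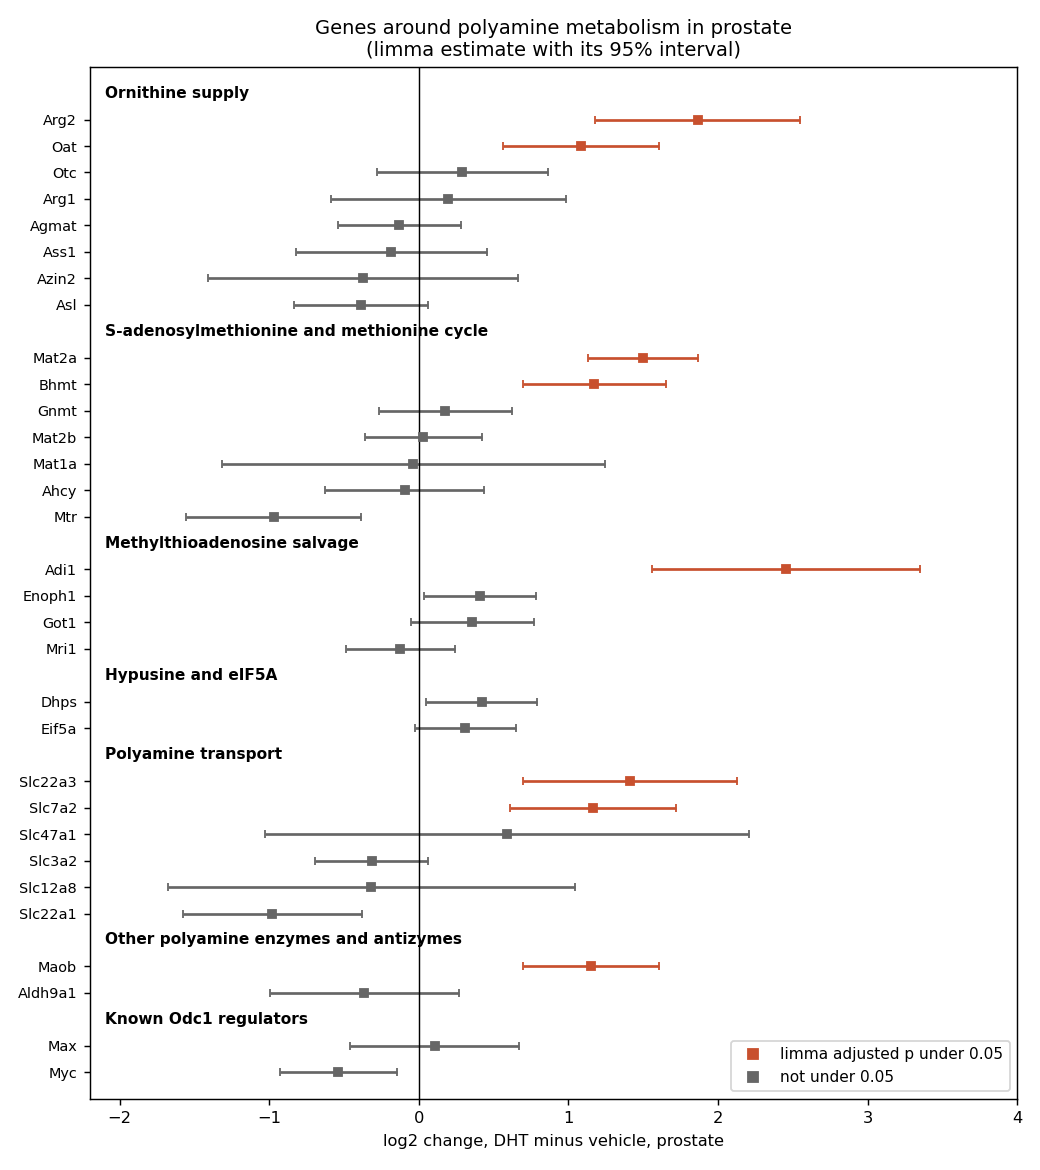
Log2 change with DHT in prostate (x axis) of the 31 tested genes around polyamine metabolism, grouped by list (rows), with the 95% interval of limma and red for an adjusted p under 0.05. The 8 genes in red all lie to the right of 0, from Oat (1.09) to Adi1 (2.46).

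Across the 23 arrays the levels of Odc1 and Sms had a Pearson correlation of 0.78, those of Odc1 and Srm one of 0.65 and those of Srm and Sms one of 0.65. Amd1 followed Sms (0.76) and Azin1 (0.71), while Sat1 and Srm had a correlation of 0.04. These are descriptions over arrays that share tissues and treatments. The 5 genes with a symbol most like Srm were Uso1 (0.92), Ssr3 (0.90), Slc35b1 (0.88), Psmb1 (0.88) and Lamp3 (0.87). Those most like Sms were Atg12 (0.97), Ebag9 (0.96), Creld2 (0.95), Chtop (0.95) and Cbx8 (0.94), and those most like Odc1 were Nelfe (0.93), Mogs (0.93), Secisbp2 (0.91), Cep63 (0.91) and Srfbp1 (0.91). Of the genes most like Srm all 5 rose in prostate, from 1.12 (Psmb1) to 2.82 (Lamp3), as the measure of likeness favours. Lamp3 was dim, with a group mean of -3.11 on prostate DHT arrays and of -5.57 or less in the other groups. Of the genes most like Odc1 only Mogs rose in prostate (1.05 ± 0.15, adjusted p = 0.00985).

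**Figure D5:**
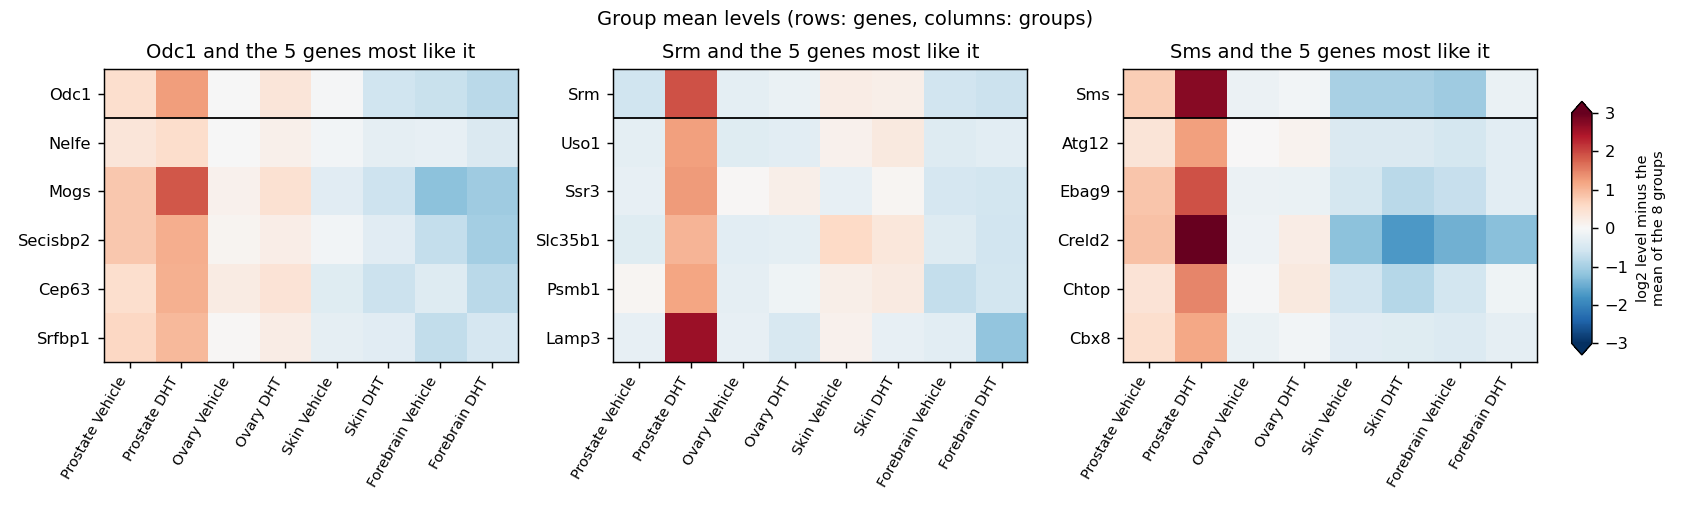
Group mean levels of Odc1, Srm and Sms (top row of each panel) and of the 5 genes with the most similar levels over 23 arrays, as log2 level minus the mean of the 8 groups (colour scale from -3 to 3). Prostate DHT is the darkest red column in every row, and for Srm and its 5 genes vehicle prostate is pale or blue.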

How the data were processed

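Labelled RNA was hybridised to one-colour Agilent rat arrays. The deposited files hold the intensity of each spot on a linear scale, background-subtracted but not normalized between arrays, written by Feature Extraction (version 10.5.1.1 in the file headers, 10.1 per the submitters' processing notes, which also name limma). Control spots were left out, and single spots with an outlier mark were set to missing. Each processed signal was taken to log2, and the 75th percentile over all other probes of its array was subtracted. Symbols were found for 10813 of 41012 probes by accession in a RefSeq table of GRCr8, and the other 30199 were tested under their own identifier. Probes well above background on at least 3 arrays of a fit were kept, and the probe with the highest mean in that fit represented a gene, so that the brighter Odc1 probe differs between fits. limma 3.58.1 (R 4.3.3) was fitted for each tissue without a block, and over all tissues and over vehicle arrays with slide as a random block (correlations of 0.0647 and 0.0752, from 2000 genes). Its code was tested on simulated data. The genes named are all members with all their probes, the 5 genes most like Odc1, Srm and Sms, and the pathway genes that passed in prostate. Other pathway and marker genes are named with their values known. Members and lists were chosen with earlier results of these data known. The normexp alternative used the median spot signal, in place of the mean signal that had been planned. The number of arrays limits the precision. Within a tissue, same-numbered vehicle and DHT samples did not deviate together (correlations of -0.43 to 0.02 between their deviations). The labels do not say whether tissues of the same number and treatment came from the same animal, and this was not tested.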

Additional observations from a re-analysis of the deposited data

Results flagged for a closer look

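The difference of the DHT effect between tissues, tested as such in the fit over 23 arrays, passed for these polyamine genes. For Srm the effect in prostate exceeded that in ovary by 2.41, in skin by 2.55 and in forebrain by 2.58 log2 units. For Sms it exceeded that in ovary by 1.91 and in skin by 1.99. On the second probe of Amd1 the effect in prostate exceeded that in ovary by 1.32 and in forebrain by 1.60, and on the second probe of Odc1 it exceeded that in skin by 2.27. The brighter probes of Amd1 and Odc1 did not pass for these differences.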

How the results depend on the processing

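Srm and Sms were called in prostate in all 19 alternatives, with changes of 2.35 to 2.59 and of 1.76 to 2.14, while the call of Amd1 was lost in 10 and that of Odc1 in 6 of 19, always with the same sign. In place of 4 members called in prostate there were 2 without the filter on dim probes, 2 with the replicate block and 2 to 4 with 1 array left out (2 without vehicle array 1 or DHT array 3), and 5 with a trended and robust prior, which added Oaz1. The genes called in prostate numbered 605 with the replicate block, 653 with normexp background correction, 834 without the filter, 4554 with array weights, 1388 in the fit over all tissues and 674 to 2908 with 1 array left out, in place of 2507. Outside prostate the block changed no DHT call and ended the vehicle-level calls of Odc1 in the F test and of Sms between ovary and each other tissue. In forebrain 1 member (Sms) was called, in place of 0, with a trended and robust prior. In place of 2 members, the F test of the DHT effect over tissues called 1 under quantile normalization, 1 under normexp, 1 with forebrain vehicle array 3 kept, 3 with the mean of all probes (Odc1 added), 4 with the second probes, and 2 to 5 with 1 array left out, the 5 without ovary vehicle array 2. For the vehicle levels 2 members passed, in place of 4, with forebrain vehicle array 3 kept, and 6 under quantile normalization, where Srm and Oaz1 were added.

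Uncalled values changed sign as follows. In ovary, quantile normalization gave -0.0041 for Srm and -0.076 for Azin1, the percentile over probes well above background -0.0035 for Sms and -0.074 for Azin1, array weights -0.10 for Sms, and leaving out both compressed vehicle arrays -0.011 for Odc1. With 1 ovary array left out the values ran from -0.15 to 0.30 (Srm), -0.14 to 0.28 (Sms), -0.019 to 0.57 (Amd1), -0.16 to 0.18 (Azin1) and -0.011 to 0.41 (Oaz1). In skin, normexp gave 0.0052 for Sms, and with 1 array left out Sms ran from -0.25 to 0.14 and Srm from -0.16 to 0.075. In forebrain, quantile normalization gave 0.084 for Amd1 and 0.035 for Oaz1, normexp 0.041 for Srm, the mean of all probes 0.026 for Odc1, and the second probes 0.19 for Odc1 and 0.11 for Amd1. With forebrain vehicle array 3 kept Srm was at 0.28, Amd1 at 0.30, Sat1 at 0.19 and Oaz1 at 0.18, and with 1 array left out Azin1 ran from -0.072 to 0.23. On vehicle arrays the second Azin1 probe gave 0.84 for ovary minus forebrain and 0.58 for skin minus forebrain. The cause of these changes was not tested. The percentile over spots not marked as outliers, the outlier spots kept and the second probes were chosen after seeing the data. Where 1 vehicle array of forebrain remained, it is assumed to vary like the other groups.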
